A study of Mus musculus with 7 samples.

Results

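The 10 genes described here encode the proteoglycans, link proteins, tenascins, hyaluronan-making enzymes and matrix receptor of brain extracellular matrix and perineuronal nets: Acan, Bcan, Ncan, Hapln1, Hapln4, Tnr, Tnc, Has2, Has3 and Ptprz1. They were chosen by name, for what their proteins do and not for their values, although earlier results of these data were known. All 10 were found among the 27583 gene names of the expression table. RNA of hippocampus was sequenced in 7 libraries, and the one group they form is hippocampus of male mice with the genotype WT, whose strain is written C57BL6/J in the sample titles and C57BL/6 in the tissue label. The study set hippocampus after spinal cord injury against hippocampus of healthy animals, but the labels are the same for every library and give no injury, time or age, so that comparison was not made. Libraries are called replicates 1 to 7. No label says that they came from separate animals, so the p-values given here speak only of differences from sample to sample, part or all of which may be technical. Any effect of injury within these differences cannot be told apart either.

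Perineuronal nets are dense sheets of matrix around the cell body and proximal dendrites of certain neurons, above all the fast-spiking interneurons that make parvalbumin. In the hippocampus they also surround pyramidal cells of area CA2. Hyaluronan synthases at the cell surface spin out hyaluronan chains, lecticans such as aggrecan and brevican attach to these chains with one end, link proteins lock that attachment, and tenascin-R ties the other ends of the lecticans together. Looser matrix of the same proteins, much of it made by astrocytes and by oligodendrocyte precursors, fills the space between cells and lies around synapses.

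The promoters of 4 of these genes are printed because their transcripts formed the 2 pairs, Ncan with Ptprz1 and Bcan with Hapln1, that had the lowest unadjusted p-values of the 15 pairs among the 6 more abundant genes. Each window runs from 250 bases before to 50 bases after a RefSeq transcription start on GRCm38.p6, and is written 5′ to 3′ on the gene's own strand. Capitals mark GGGCGG (the GC box bound by Sp1-type factors) and TATAA (the core of a TATA box), searched on both strands. RefSeq promoter windows were matched for 7 of the 10 genes; Hapln4, Has2 and Has3 were not matched.
Ncan, chr8:70120795-70121094, minus strand: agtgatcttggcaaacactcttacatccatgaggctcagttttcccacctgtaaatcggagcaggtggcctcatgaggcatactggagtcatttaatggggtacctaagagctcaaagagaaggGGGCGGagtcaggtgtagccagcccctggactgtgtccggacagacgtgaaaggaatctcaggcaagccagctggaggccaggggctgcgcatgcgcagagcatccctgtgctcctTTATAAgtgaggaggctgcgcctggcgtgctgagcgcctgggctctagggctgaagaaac
Ptprz1, chr6:22875252-22875551, plus strand: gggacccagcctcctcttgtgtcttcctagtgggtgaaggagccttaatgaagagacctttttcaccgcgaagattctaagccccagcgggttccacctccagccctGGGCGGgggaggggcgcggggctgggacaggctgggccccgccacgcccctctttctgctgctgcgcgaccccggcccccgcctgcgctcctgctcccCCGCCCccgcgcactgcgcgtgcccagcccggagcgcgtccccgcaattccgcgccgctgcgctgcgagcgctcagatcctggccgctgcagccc
Bcan, chr3:88000307-88000606, minus strand: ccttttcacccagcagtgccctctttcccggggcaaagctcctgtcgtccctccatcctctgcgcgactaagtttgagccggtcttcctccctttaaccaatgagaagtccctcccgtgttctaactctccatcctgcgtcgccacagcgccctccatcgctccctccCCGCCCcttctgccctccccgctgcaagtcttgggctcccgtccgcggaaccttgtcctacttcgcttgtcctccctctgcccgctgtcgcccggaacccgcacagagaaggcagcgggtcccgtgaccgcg
Hapln1, chr13:89540386-89540685, plus strand: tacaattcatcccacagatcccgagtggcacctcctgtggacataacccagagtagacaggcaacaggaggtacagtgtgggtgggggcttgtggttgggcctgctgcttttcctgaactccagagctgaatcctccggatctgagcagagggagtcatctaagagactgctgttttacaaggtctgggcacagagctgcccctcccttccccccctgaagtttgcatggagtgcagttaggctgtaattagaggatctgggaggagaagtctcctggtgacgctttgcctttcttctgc
The Ptprz1 window held 29 CpG dinucleotides, 71.7% G and C, and 2 GC boxes. The Bcan window held 24 CpG, 64% G and C, and 1 GC box. The Ncan window held 9 CpG, 56.7% G and C, 1 GC box, and the stretch TTATAA, which reads as TATAA on both strands and so gives 2 overlapping matches. The Hapln1 window held 3 CpG, 54.3% G and C, and neither motif. Among all 32851 RefSeq mouse promoter windows of this length, 35.7% held GGGCGG, 24.9% held TATAA, and the medians were 7 CpG and 52.7% G and C. In both pairs the CpG counts lay apart, with 29 in Ptprz1 beside 9 in Ncan and 24 in Bcan beside 3 in Hapln1.

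Levels are FPKM, fragments per kilobase of gene scaled to the mapped fragments of the library, as the authors deposited them, and FPKM allows levels to be set against each other between genes. The 10 genes together made up 0.0394% to 0.0495% of all FPKM in a library. Whole read counts could be recovered from the table, and they summed to 36258243 to 37497513 reads per library. Counting error therefore came to at most 2.73% for Bcan, Ncan, Hapln1, Hapln4, Tnr and Ptprz1, the 6 genes with a median of at least 1 FPKM. It was larger for Acan, Tnc and Has3, and Has2 rested on at most 16 reads. The libraries were not equal in their levels of marker genes. In replicate 5 a list of 12 striatal projection neuron genes summed to 1866 FPKM, against 67.0 to 84.3 FPKM in the other libraries, and all 12 were highest there. In replicates 3 and 7 a list of 10 choroid plexus and ependyma genes summed to 1030 and 1334 FPKM, against 88.9 to 350 FPKM elsewhere, and each of the 10 was highest in one of these libraries. No gene of the 15 marker lists was at 0 throughout. The sum of the astrocyte list stayed within 841 to 923 FPKM, although single genes of that list varied more.

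By median level the order was Bcan, Hapln4, Ncan, Ptprz1, Tnr, Hapln1, Tnc, Acan, Has3 and Has2. Bcan, at a median of 54.1 FPKM, was above Hapln4, at 30.3 FPKM, in all 7 libraries without overlap of their ranges. Hapln4 and Ncan were not separated: Hapln4 was the higher in 5 of 7 libraries. Ncan exceeded Ptprz1 in all 7 libraries and Tnr exceeded Hapln1 in all 7, although the ranges overlapped in both cases. Tnc was above Acan in 6 of 7 libraries, and Acan above Has3 in 6 of 7, so these neighbours did not differ beyond their spread. A wide step lay between Hapln1, at a median of 7.37 FPKM, and Tnc, at 0.881 FPKM.

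**Figure D1:**
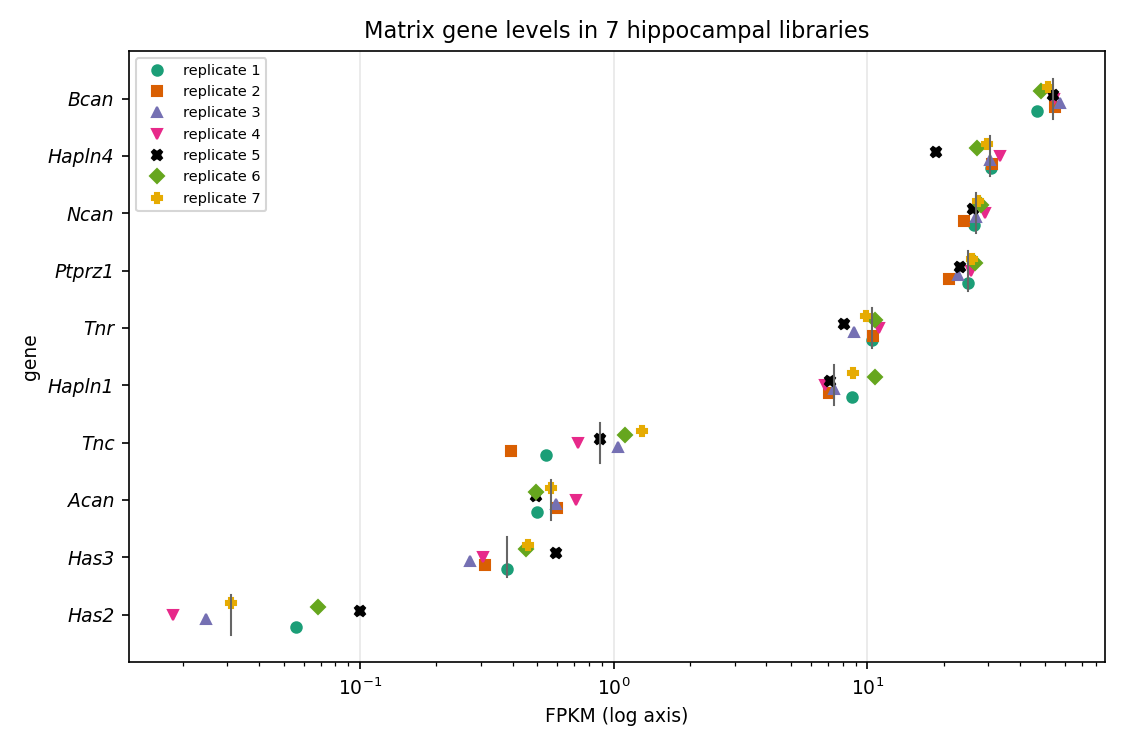
FPKM on a log axis of the 10 matrix genes, from the highest median at the top to the lowest at the bottom, with one symbol for each of the 7 libraries and a grey line at the median. Bcan stands above all others, the medians of Hapln4, Ncan and Ptprz1 lie between 25.0 and 30.3, and Has2 has 6 points because it was at 0 in replicate 2.

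Lecticans are the chondroitin sulfate proteoglycans that bind hyaluronan. Bcan, which encodes brevican, the lectican of mature brain found around synapses and glia, had 46.8, 54.9, 57.7, 54.4, 54.1, 48.4 and 51.5 FPKM in replicates 1 to 7. Replicate 3 was highest and replicate 1 lowest, a ratio of 1.23. Its coefficient of variation of 7.37% was larger than a counting error of at most 1.17%. In bulk tissue such a difference can come from fewer cells of a type or from less RNA per cell, and these cannot be told apart here.

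Ncan, which encodes neurocan, a lectican of developing and adult brain secreted by neurons and astrocytes, had 26.2, 23.9, 26.9, 29.0, 26.1, 28.1 and 27.3 FPKM in replicates 1 to 7. It was among the steadier of the genes: replicate 4 was 1.21 times replicate 2. The SD of log2(FPKM + 1) was 0.08, which placed it at percentile 29.9 among the 1000 genes nearest to it in level. Bcan sat at percentile 50.5 by the same measure.

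Acan, which encodes aggrecan, the lectican most closely tied to perineuronal nets, had 0.498, 0.596, 0.593, 0.710, 0.494, 0.492 and 0.564 FPKM in replicates 1 to 7. Replicate 4 was highest, at 211 reads, and replicates 5 and 6 were lowest, at 144 reads each. Counting error ran from 6.88% to 8.33%, against a coefficient of variation of 14.0%. Pvalb, the parvalbumin gene of the interneurons that carry most nets, was at 26.4 to 35.2 FPKM and so was detected in every library.

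As a family, counting Vcan (versican) with them, the lecticans summed to 75.4 to 86.9 FPKM. Bcan supplied 61.2% to 67.8% of this, Ncan 29.6% to 35.5%, Vcan 1.96% to 2.60%, and Acan 0.598% to 0.828%. Bcan was 1.72 to 2.29 times Ncan. The order of the 4 lecticans was the same in all 7 libraries, and the family sum was highest in replicate 3 and lowest in replicate 1, as Bcan was.

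Link proteins clamp lecticans onto hyaluronan. Hapln4, which encodes the brain link protein Bral2 of perineuronal nets, had 30.6, 31.1, 30.3, 33.4, 18.7, 27.1 and 29.7 FPKM in replicates 1 to 7. Replicate 5 lay below all the others, at 0.613 times their median, and the remaining 6 stayed within 1.23-fold of each other. The gap from replicate 5 to the next library took 0.575 of the whole range, just over Dixon's 95% critical value for 7 values, so that this library is said to stand apart.

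Hapln4 was the only one of the 6 genes with a median of at least 1 FPKM to have a library standing apart in this way. Over all 12052 genes at that level, 9.72% had such a library, and 2.61% had replicate 5 standing apart at the low end. No library stood apart on Hapln4 once values were rescaled to a common sum, to a common upper quartile, or without mitochondrially encoded genes, although the highest library was still 1.93, 1.78 and 1.83 times the lowest under these scalings. In replicate 5 the striatal list was high, as given above. Genes of dentate granule cells summed to 138 FPKM in replicate 5, against 143 to 175 FPKM in the other libraries. Of these 10 genes, 7 were lowest and 2 highest in replicate 5. CA1 genes summed to 143 FPKM in replicate 5, against 165 to 196 FPKM, with 6 of 10 lowest and 1 highest there. Over all 12052 genes, 26% were lowest and 21.1% highest in replicate 5. Some other lists had higher sums in it. The parvalbumin interneuron list, which shares Tac1 with the striatal list, summed to 598 FPKM in replicate 5, against 394 to 438 FPKM elsewhere. Of its 11 genes, 5 were highest and 2 lowest there. The CA3 and CA2 list summed to 1281 FPKM in replicate 5, against 351 to 593 FPKM, but 6 of its 11 genes were lowest there and 2 highest. Pcp4 alone supplied 1118 FPKM of that sum, against 167 to 421 FPKM in the other libraries. Whether what lies behind these differences between lists has a part in the Hapln4 value was not tested.

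Hapln1, which encodes the link protein first known from cartilage and present in perineuronal nets, had 8.66, 7.05, 7.37, 6.78, 7.11, 10.7 and 8.76 FPKM in replicates 1 to 7. Replicate 6 was highest, with replicates 7 and 1 next, and replicate 4 lowest, a ratio of 1.58, or 1.29 without replicate 6. Its SD of 0.21 was at percentile 87 among genes of like level, and that of Hapln4, 0.27, at percentile 93.1. Hapln1 and Hapln4 were the 2 of the 6 genes whose highest library was at least 1.5 times the lowest, against 24.5% of all 12052 genes. Hapln1 was highest in replicate 6 and Hapln4 in replicate 4.

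The link protein transcripts, with Hapln2 and Hapln3 added, summed to 35.9 FPKM in replicate 5, against 45.4 to 50.8 FPKM in the other libraries, and that gap took 0.641 of the range. Hapln4 supplied 52.0% of the sum in replicate 5, against 59.7% to 65.7% in the others. Hapln2, which encodes the link protein of nodes of Ranvier on myelinated axons, had 10.9, 11.0, 12.9, 10.5, 9.98, 7.46 and 10.8 FPKM in replicates 1 to 7. Hapln3, found in many tissues, rested on 11 to 23 reads. Replicate 6, where Hapln1 was highest, was the library in which Hapln2 was lowest. Hapln4 ranged from 2.53 to 4.92 times Hapln1, with replicates 6 and 5 at the low end and replicate 4 at the high end.

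**Figure D2:**
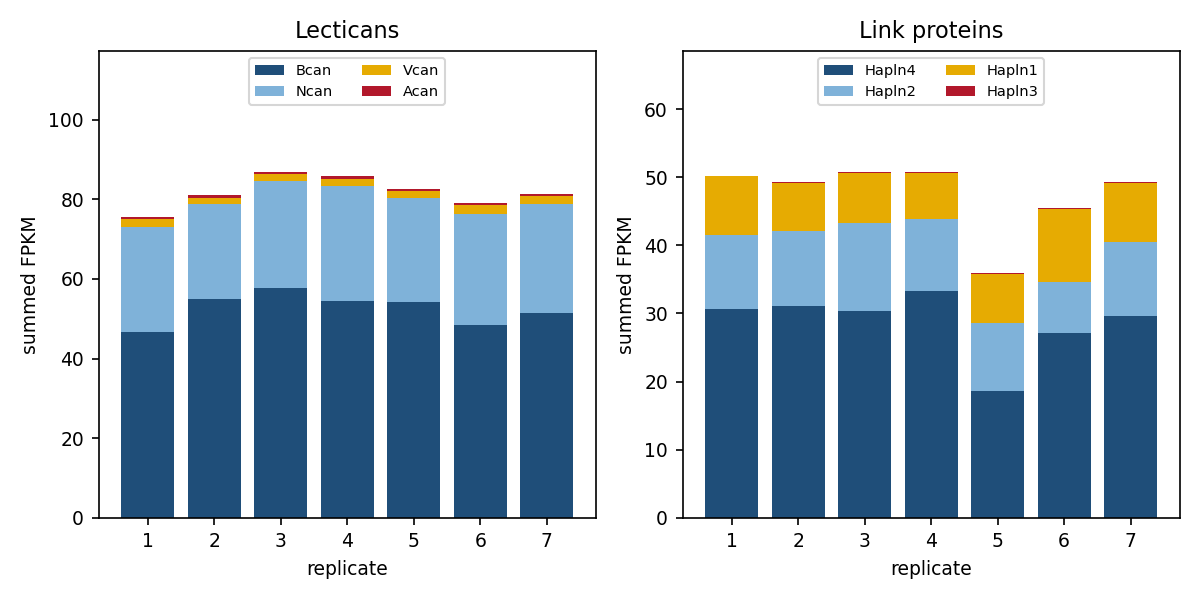
Stacked bars of summed FPKM in replicates 1 to 7 for the lecticans (left) and the link proteins (right), each colour being one gene. The lectican bars lie between 75.4 and 86.9, and the link protein bar of replicate 5, at 35.9, is below the other 6, through its Hapln4 segment.

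Tenascins are large multi-armed glycoproteins. Tnr, which encodes tenascin-R, the protein that cross-links lecticans and is made by oligodendrocytes and some neurons, had 10.4, 10.5, 8.89, 11.2, 8.11, 10.8 and 9.88 FPKM in replicates 1 to 7. Replicate 5 was lowest and replicate 3 next. The highest library was 1.38 times the lowest, and 1.26 times without replicate 5. The list of myelin genes, which oligodendrocytes express, summed to 1907 FPKM in replicate 5, against 1128 to 2064 FPKM in the other libraries.

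Tnc, which encodes tenascin-C, a tenascin of developing brain, of neurogenic zones and of reactive astroglia, had 0.543, 0.394, 1.04, 0.725, 0.881, 1.11 and 1.29 FPKM in replicates 1 to 7. These values rested on 158, 113, 305, 214, 255, 323 and 378 reads. Tnc had the widest range of the 9 genes detected in every library: replicate 7 was 3.28 times replicate 2, and the ratio without replicate 2 was 2.38. Its coefficient of variation of 37.6% compares with a counting error of at most 9.41%. Replicates 3, 6 and 7 were the highest for Tnc, and the choroid plexus and ependyma list was also highest in those 3, at 1030, 350 and 1334 FPKM. Replicate 5 came next on both, at 0.881 FPKM for Tnc and 148 FPKM for the list, but 3 of the 10 genes were lowest in it. In replicate 6, Ttr at 238 FPKM and Enpp2 at 91.9 FPKM made up most of the list sum. Like Tnc, the oligodendrocyte precursor and myelin lists were highest in replicate 7, at 139 and 2064 FPKM, and lowest in replicate 2, at 105 and 1128 FPKM. The meninges and fibroblast list was highest in the same 3 libraries, at 60.9, 52.9 and 65.4 FPKM, against 29.5 to 43.7 FPKM in the other 4. The thalamus list summed to 121 and 122 FPKM in replicates 3 and 7, against 31.5 to 68.2 FPKM in the other 5. The astrocyte list summed to 918 FPKM in replicate 2 and 876 FPKM in replicate 7, but its genes differed. Aqp4 was lowest in replicate 2, at 20.3 FPKM, and highest in replicate 7, at 43.1 FPKM. Aldoc was highest in replicate 2, at 345 FPKM, and lowest in replicate 7, at 268 FPKM. The part of such tissues and cells in the Tnc values was not tested.

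Tnr made up 88.4% to 96.4% of the 2 tenascins, and Tnr over Tnc ran from 7.64 in replicate 7 to 26.7 in replicate 2. Exons of Tnr overlap those of Gm38039, an antisense gene, and exons of Tnc overlap those of 8030451A03Rik on the opposite strand. Whether the authors counted by strand is not given in the sources used here, so reads of these overlapping stretches cannot be told apart.

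Hyaluronan synthases make the backbone on which nets are built. Has3 had 0.379, 0.311, 0.271, 0.307, 0.595, 0.452 and 0.458 FPKM in replicates 1 to 7, from 89, 72, 64, 73, 139, 106 and 108 reads. Replicate 5 was highest, at 1.72 times the median of the other libraries, and the 2.20-fold range was 1.69-fold without it. Exons of Has3 overlap those of Chtf8, a coding gene on the opposite strand, so the same limit on strand applies.

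Has2, the synthase that embryos and many connective tissues rely on, was covered by 9, 0, 4, 3, 16, 11 and 5 reads in replicates 1 to 7. In FPKM this came to 0.0559, 0, 0.0247, 0.0184, 0.0999, 0.0685 and 0.0309, and a count of 0 in replicate 2 allows up to 0.0189 FPKM at a floor of 3 reads, which covers counting error only. Replicate 5 had the most reads, as it did for Has3, but counts this small do not order the other libraries. Has2 also overlaps a gene on the other strand, Has2os. With Has1 added, the 3 synthases summed to 1.39 FPKM in replicate 5, against 0.337 to 0.659 FPKM in the other libraries, a gap of 0.695 of the range. In replicate 5 Has1 alone was 0.697 FPKM, against 0.0124 to 0.163 FPKM in the others, and made up 50.1% of the sum.

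Ptprz1 encodes a receptor protein tyrosine phosphatase that carries chondroitin sulfate, and its secreted form, phosphacan, is itself a matrix proteoglycan that binds tenascins. It had 25.0, 20.9, 22.8, 25.7, 23.2, 26.5 and 25.8 FPKM in replicates 1 to 7. Replicate 6 was highest and replicate 2 lowest, a ratio of 1.27, and its SD of 0.12 was at percentile 58 among genes of like level. FPKM per gene does not separate the receptor from the secreted form. Ptn, which encodes pleiotrophin, a secreted ligand of this receptor, had 160, 125, 160, 131, 198, 196 and 193 FPKM in replicates 1 to 7. Replicate 2 was its lowest library too, where 16.8% of all genes were lowest. Ptn was highest in replicate 5, where Ptprz1, at 23.2 FPKM, was below its median of 25.0 FPKM.

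**Figure D3:**
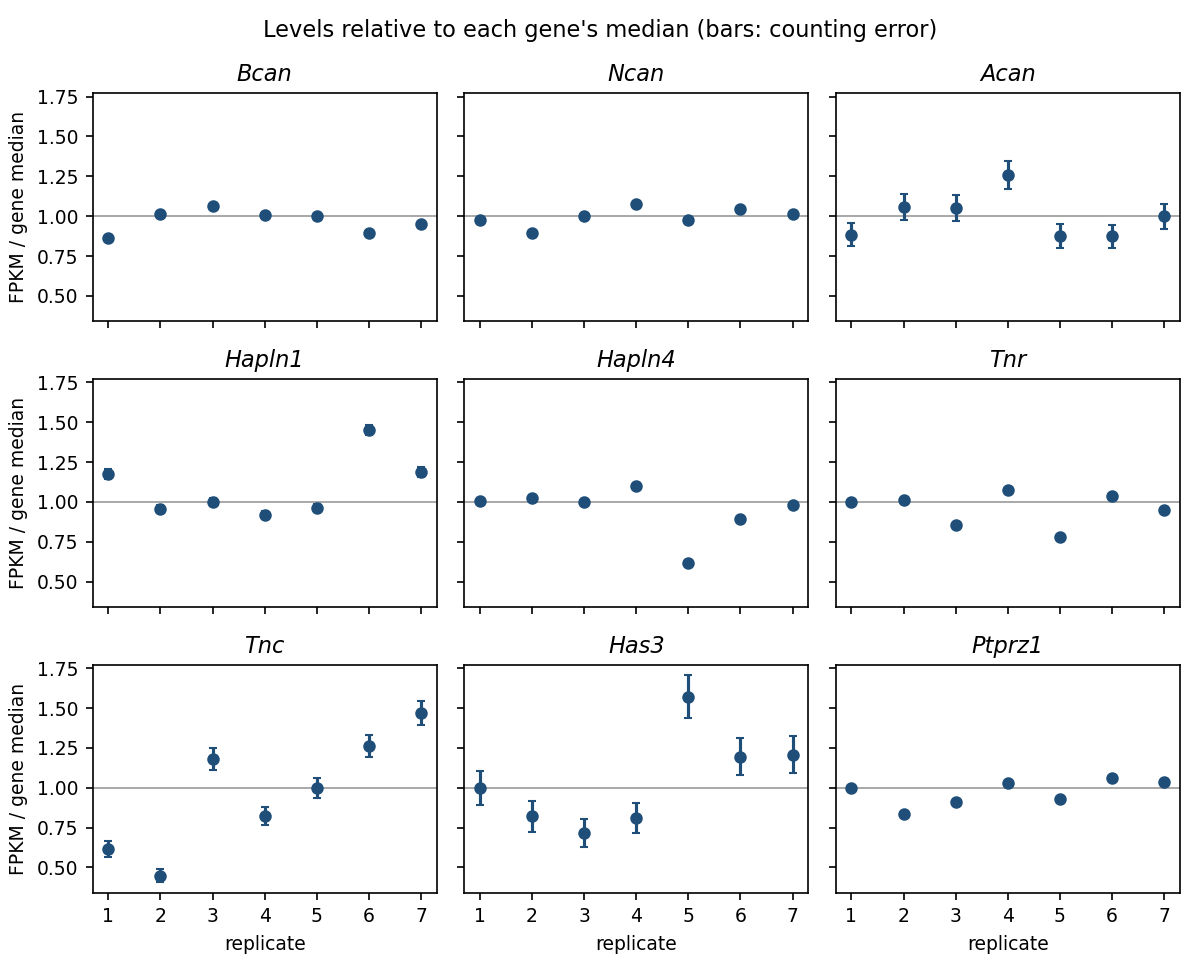
FPKM of 9 matrix genes in replicates 1 to 7, each divided by the gene's own median, with bars for counting error of the recovered reads. Hapln4 is low in replicate 5, Hapln1 high in replicate 6, Tnc spreads 3.28-fold, and Bcan, Ncan and Ptprz1 stay close to their medians. Has2, with at most 16 reads, is not drawn.

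Over the 6 genes with a median of at least 1 FPKM, the median SD of log2(FPKM + 1) was 0.13, against 0.12 over all 12052 genes. The median ratio of highest to lowest library was 1.32, against 1.31. Replicate 5 was the lowest library for 2 of the 6, Hapln4 and Tnr, where 26% of all genes were lowest in it, and the highest for 0 of the 6, where 21.1% of all genes were. Replicate 4 was the highest library for 3 of the 6 (Ncan, Hapln4 and Tnr), where 15.6% of all genes were, replicate 6 for 2 (Hapln1 and Ptprz1), where 14.4% were, and replicate 3 for Bcan, where 15.1% were. Replicate 2 was the lowest for 2 (Ncan and Ptprz1), where 16.8% of all genes were, replicate 4 for Hapln1, where 20.1% were, and replicate 1 for Bcan, where 9.06% were. Counts over 6 genes are a description.

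**Figure D4:**
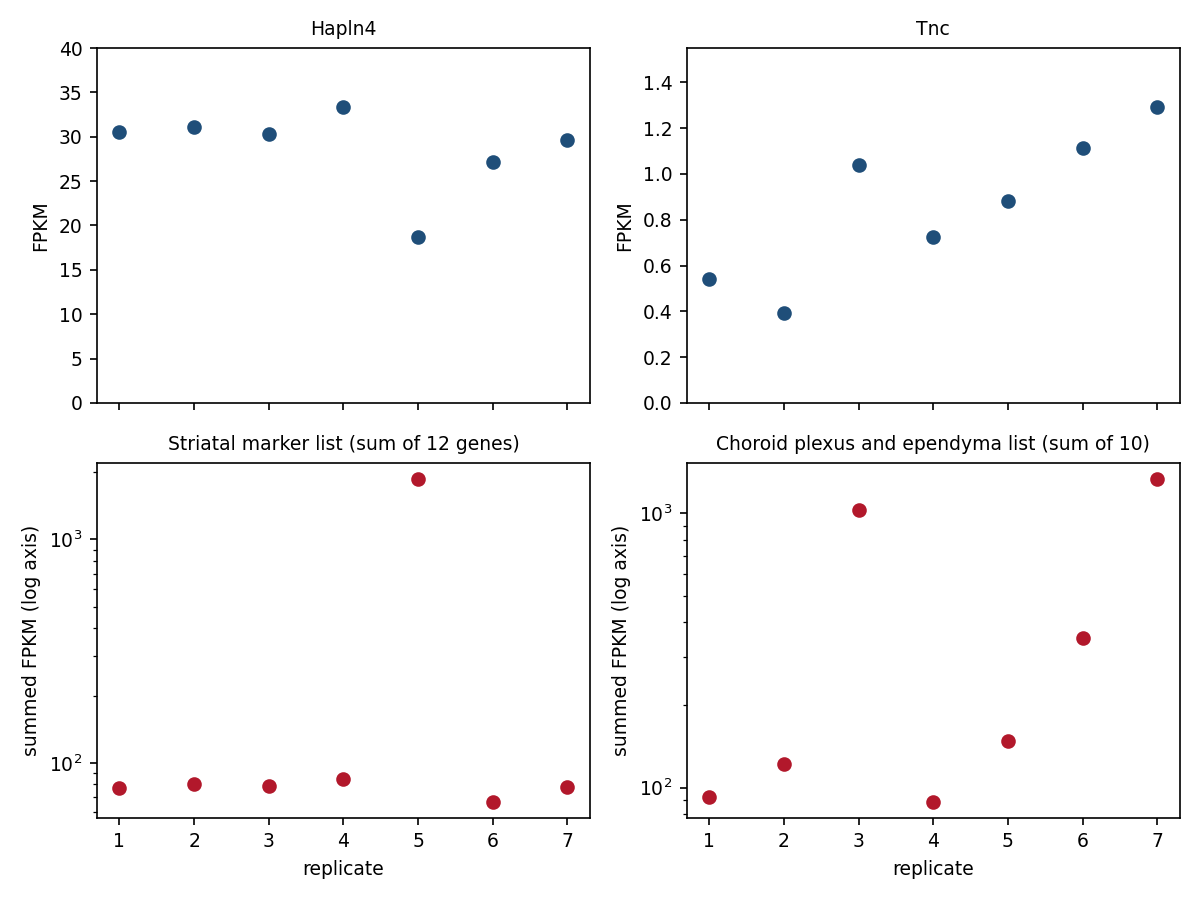
Values in replicates 1 to 7 of Hapln4 and Tnc in FPKM (top) and, on log axes, the summed FPKM of 12 striatal genes and of 10 choroid plexus and ependyma genes (bottom). Replicate 5 has the lowest Hapln4, at 18.7, and the highest striatal sum, at 1866; replicates 3 and 7 have the highest choroid plexus sums, and Tnc is high there and in replicate 6.

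Pearson's r over the 7 libraries was computed on log2(FPKM + 1) for the 15 pairs among the 6 genes, with exact two-sided permutation over all 5040 pairings of the libraries, which cannot give a p below 0.000198. Two-sided p-values were then adjusted by the Benjamini-Hochberg method over all 12051 other genes for each of the 6. Of the 15 pairs, 10 were positive and 5 negative, 2 had an unadjusted p below 0.05, and 0 passed the adjustment. Even a pair at the lowest possible p could pass only if many other genes had p-values as low, so this 0 says little about the pairs. By Spearman's rho, 1 pair had an unadjusted p below 0.05.

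Ncan and Ptprz1, whose proteins are both chondroitin sulfate proteoglycans released into brain matrix, had r = 0.85, with an exact permutation p of 0.0131 and an adjusted p of 0.578 among the associations of Ptprz1 and 0.9999 among those of Ncan. Spearman's rho was 0.786, with an exact permutation p of 0.0480. Replicate 2 was lowest for both genes. The coefficient was 0.669 without replicates 2 and 4, the farthest from the Ncan median, 0.718 without replicates 2 and 3, the farthest from the Ptprz1 median, 0.636 without replicate 2 alone, where the exact permutation p was 0.172, and 0.850 without replicate 5. Per library, Ptprz1 was between 0.848 and 0.953 times Ncan.

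Hapln1 and Bcan went opposite ways, with r = -0.78, an exact permutation p of 0.0371 and an adjusted p of 0.532 among the associations of Hapln1 and 0.900 among those of Bcan. Spearman's rho was -0.643, with an exact permutation p of 0.139. The 3 libraries highest for Hapln1, replicates 6, 7 and 1, were the 3 lowest for Bcan. Without replicates 6 and 7, the farthest from the Hapln1 median, r was -0.825, without replicates 1 and 6, the farthest from the Bcan median, it was -0.609, and without replicate 5 it was -0.774. Leaving out any one of replicates 2, 4, 5, 6 and 7 put the exact permutation p between 0.0625 and 0.0819, above 0.05.

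The 2 net link proteins, Hapln1 and Hapln4, had r = 0.01 with an exact permutation p of 0.987, and rho = -0.607 with an exact permutation p of 0.167. Without replicate 5 their r was -0.908. Replicate 5 was the lowest for Hapln4 and the third lowest for Hapln1, and in the other 6 libraries Hapln4 was lower where Hapln1 was higher. Hapln4 and Tnr, the 2 genes lowest in replicate 5, had r = 0.76 with an exact permutation p of 0.0506, and 0.160 without replicate 5. It was 0.718 without replicates 5 and 6, the farthest from the Hapln4 median, and 0.320 without replicates 3 and 5, the farthest from the Tnr median. Under the 3 other scalings r was 0.736 to 0.806, with exact permutation p-values of 0.0262 to 0.0440.

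**Figure D5:**
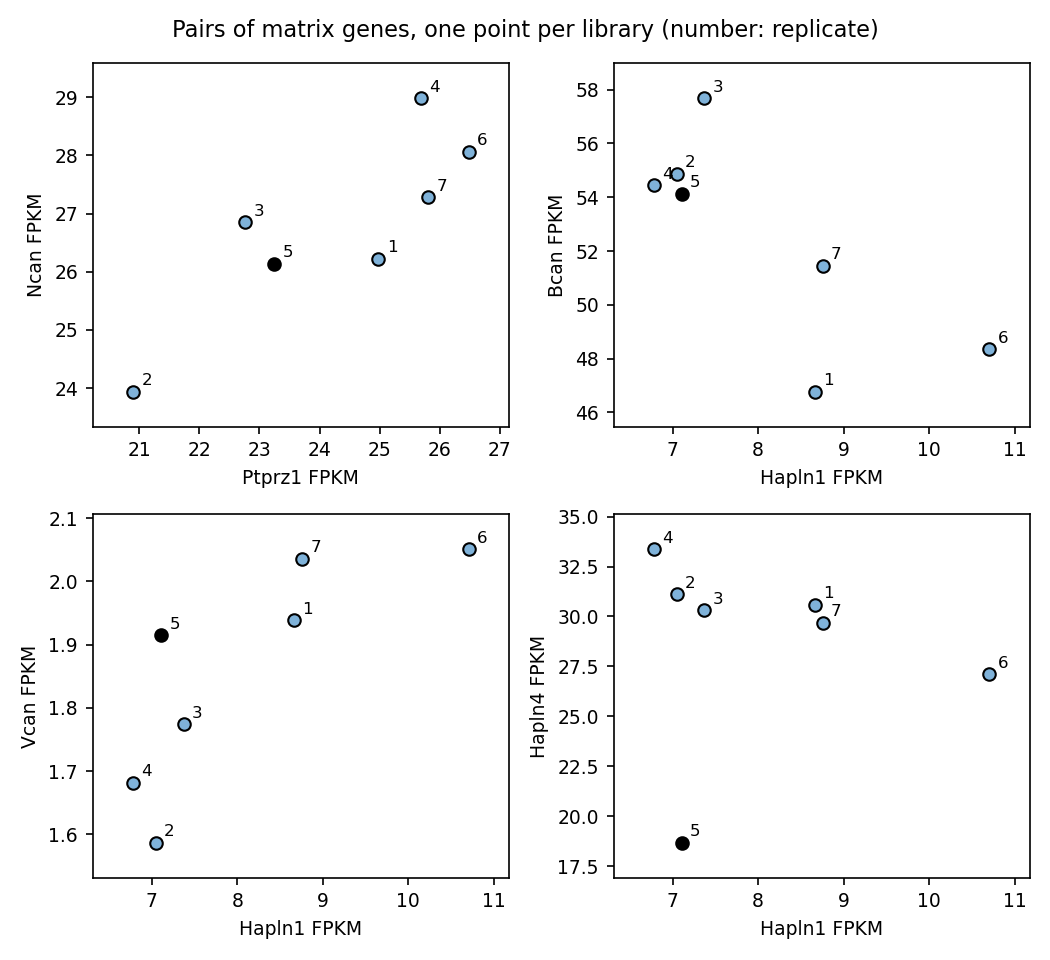
FPKM of pairs of matrix genes, one point per library with its replicate number and replicate 5 in black. Ncan is higher where Ptprz1 is higher, Bcan is lower and Vcan higher where Hapln1 is higher, and Hapln4 against Hapln1 shows replicate 5 low on Hapln4 and a downward run of the other 6.

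In the mouse genome each lectican gene lies beside a link protein gene with 0 coding genes between them, by GENCODE M21 on GRCm38. Ncan (chromosome 8, 70093085 to 70120873, minus strand, 15 merged exonic blocks) lies 2222 bases from Hapln4 (70083457 to 70090862, plus strand, 5 blocks). Bcan (chromosome 3, 87987531 to 88000230, minus strand) is 21519 bases from Hapln2, Acan (chromosome 7, 79053483 to 79115099, plus strand) is 2 bases from Hapln3, and Hapln1 (chromosome 13, 89539796 to 89611652, plus strand) is 43659 bases from Vcan. Ncan and Hapln4, Acan and Hapln3, and Hapln1 and Vcan lie tail to tail.

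Across the 7 libraries these neighbours were tested as 4 pairs. Acan and Hapln3 are both under 1 FPKM, so their r rests on few reads. Ncan and Hapln4 had r = 0.14 with an exact permutation p of 0.694, Bcan and Hapln2 had r = 0.59 with an exact permutation p of 0.160, and Acan and Hapln3 had r = 0.24 with an exact permutation p of 0.622. Hapln1 and Vcan had r = 0.80 with an exact permutation p of 0.0266, and rho = 0.929 with an exact permutation p of 0.00675. Adjusted over all genes for Hapln1, these became 0.506 and 0.360. Without replicates 2 and 4, the farthest from the Vcan median, r was 0.774, and without replicate 5 it was 0.898. Leaving out replicate 1, 4 or 6 put the exact permutation p between 0.0514 and 0.0792, and leaving out replicate 7 gave 0.05. Vcan had 1.94, 1.59, 1.77, 1.68, 1.91, 2.05 and 2.04 FPKM in replicates 1 to 7.

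For each of the 6 genes the 3 most similar genes were listed by r over the 7 libraries. Hapln4 was most like Dnajb5 (r = 0.996), Sipa1l2 (0.996) and Nhsl1 (0.995), with adjusted p-values by exact permutation of 0.0548, 0.0632 and 0.0520. Without replicate 5 their r was 0.969, 0.979 and 0.955, over libraries that had also served to pick them. Hapln4 had the most associations at an unadjusted p below 0.05, 20.5% of the 12051 genes, against 12.8% for Tnr, 8.65% for Hapln1, 7.26% for Ptprz1, 5.35% for Bcan and 3.1% for Ncan. For each of the 6 genes, 0 associations passed the adjustment by either r or rho. At the lowest possible p no single gene could have passed alone.

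Hapln1 was most like Tmem30a (r = 0.991), Eif2s2 (0.982) and Tbc1d8b (0.980). Tnr was most like Ptpre (0.985), Exoc6b (0.983) and Fgf5 (0.980), and Ptprz1 most like Lats1 (0.979), 2810002D19Rik (0.975) and Pou3f3 (0.975). Bcan was most like Nagpa (0.981), Ppp2r3d (0.962) and Mrpl54 (0.959), and Ncan most like Pcnt (0.972), Ctnnd2 (0.965) and Kctd5 (0.962). None of the 6 genes appeared in the list of another. Being picked as the highest of 12051 coefficients, these values are a description.

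The wider matrix was read from 4 lists. Of 32 other matrix genes, 26 had a median of at least 1 FPKM, and replicate 5 was the lowest library for 13 of these (50%) and the highest for 6 (23.1%), where 26% of all 12052 genes were lowest and 21.1% highest in it. A library stood apart on 4 of the 26, against 9.72% of all genes. Spock3, a testican proteoglycan, had 89.7 FPKM in replicate 5, against 20.8 to 32.7 FPKM in the other libraries, a gap of 0.827 of the range. Fmod (fibromodulin) ran from 0.540 to 2.83 FPKM. Cspg4, the NG2 proteoglycan of oligodendrocyte precursors, had the smallest SD of log2(FPKM + 1) in this list, a scale that understates the spread of low genes, at 2.37 to 2.75 FPKM. Sparcl1 (hevin, an astrocyte matrix protein), at 496 to 600 FPKM, and Spock2, at 131 to 149 FPKM, exceeded Bcan in every library.

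Chondroitin sulfate chains on Acan, Bcan, Ncan and Ptprz1 are built by a shared set of enzymes. Of 22 such genes 21 were found and 18 had a median of at least 1 FPKM. Replicate 5 was lowest for 6 of the 18 (33.3%, against 26% of all genes) and highest for 4 (22.2%, against 21.1%), and 0 had a library standing apart, against 9.72% of all genes. Xylt1, which starts the chain, had 3.52 FPKM in replicate 5, against 4.30 to 5.90 FPKM in the others, and Chst15, which adds a second sulfate, had 9.76 FPKM in replicate 5, against 6.36 to 8.78 FPKM. B3gat3, of the linker, was at 60.6 FPKM in replicate 5, against 68.0 to 81.8 FPKM, and Chpf, of chain extension, at 20.4 FPKM in replicate 5, against 21.2 to 25.7 FPKM. Fam20b, a kinase of the linker, had the smallest SD, at 15.1 to 17.0 FPKM.

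Enzymes that cut matrix and their inhibitors came to 28 genes, 19 of them with a median of at least 1 FPKM, and replicate 5 was lowest for 9 (47.4%, against 26% of all genes) and highest for 0 (against 21.1%). Adamts4, a protease that cleaves aggrecan and brevican, had 6.05, 3.94, 4.82, 4.80, 7.93, 8.36 and 8.79 FPKM in replicates 1 to 7, highest in replicates 5, 6 and 7. The myelin list was highest in the same 3 libraries, at 1907, 1828 and 2064 FPKM, against 1128 to 1389 FPKM in the other 4. Cemip, which degrades hyaluronan, had 1.68 FPKM in replicate 5, against 2.84 to 3.67 FPKM in the others, a gap of 0.582 of the range. Ids, a lysosomal sulfatase, stood at 55.8 to 64.7 FPKM and Timp2, a metalloproteinase inhibitor, at 50.1 to 64.9 FPKM.

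Ligands and receptors of net components came to 27 genes, 20 with a median of at least 1 FPKM, and replicate 5 was lowest for 12 (60%, against 26% of all genes) and highest for 4 (20%, against 21.1%). A library stood apart on 7 of the 20, against 9.72% of all genes. Nptx1, a neuronal pentraxin that gathers glutamate receptors, had 54.4 FPKM in replicate 5, against 96.0 to 144 FPKM in the other libraries. Rtn4rl2, a Nogo receptor family member, had 5.26 FPKM in replicate 5, against 11.1 to 13.7 FPKM, a gap of 0.692 of the range. Ncam1, a neural adhesion molecule, had the smallest SD, at 22.9 to 25.0 FPKM.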

How the data were processed

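The authors deposited 1 table of FPKM values with 27583 gene names and 7 columns, matched to samples by the library names in the labels. Libraries were made from total RNA by a SMARTer protocol for mRNA sequencing, per the labels' protocols. The genome build was mm10, per the submitters' processing notes. For aligner, counter, annotation, strand setting and filters, details were not given in the sources used here. As a unit, FPKM corrects for depth and gene length but not for composition, so a few very abundant transcripts push down the rest of that library.

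The genes and lists were chosen with earlier results of these data known. Spread and correlation used log2(FPKM + 1), on which changes of low genes are understated, over the 12052 genes with a median of at least 1 FPKM. This kept 6 of the 10 genes; Acan, Tnc, Has2 and Has3 are given as values, apart from 1 correlation of Acan with its genome neighbour Hapln3. A library stood apart where its gap to the nearest value as a share of the range in FPKM exceeded Dixon's 95% critical value for 7 values. Correlations had exact permutation p-values, adjusted by Benjamini-Hochberg over 12051 genes; a gene whose middle gap exceeded 0.51 of its range would have had none, and no gene did. Named genes were the 10, their genome neighbours among lecticans and link proteins, the 3 most similar genes of each, and in each matrix list the 2 with the largest SD, the 1 with the smallest and the 2 with the highest median. Has1, Pvalb, Pcp4, Ttr, Enpp2, Aqp4 and Aldoc are outside that rule and were chosen after their values were seen.

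FPKM steps of low genes gave the worth of 1 read in each library from 739 to 790 genes, and whole reads came out within 0.02 for 20503 of the 20504 genes detected in at least 5 libraries. A factor shared by all 7 counts of a gene would go unseen. The correlation and gap steps were tested on simulated data. Alternatives were a pseudocount of 0.1, 3 other scalings, a median minimum of 0.1 or 5 FPKM, the gap on a log2 scale, Spearman's rho and leaving out each library in turn. Computation used scipy 1.17.1, pandas 2.3.3 and numpy 2.4.6 under Python 3.11.15, and figures were drawn with matplotlib 3.10.9.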

Additional observations from a re-analysis of the deposited data

Results flagged for a closer look

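Replicate 5 was the library behind each of the values below, whose gap to the nearest of the other 6 libraries, as a share of the range, exceeded Dixon's 95% critical value for 7 values. Chance gives such a gap in about 1 of 20 sets of 7, and 9.72% of all 12052 genes had one. Hapln4 lay low in replicate 5 with a gap of 0.575, and the link proteins together lay low with a gap of 0.641. The hyaluronan synthases together lay high with a gap of 0.695, from Has1 and Has3. Among the other matrix genes named by the rule above, Spock3 lay high with a gap of 0.827, Cemip low with 0.582 and Rtn4rl2 low with 0.692. These are not all such genes. A library stood apart on 4 of 26 wider matrix genes, 1 of 19 matrix breakdown genes and 7 of 20 ligands and receptors. The striatal list summed to 1866 FPKM in replicate 5, against 67.0 to 84.3 FPKM in the other libraries, and its part in these gaps was not tested.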

How the results depend on the processing

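The order of the 10 levels was the same under all 3 other scalings and without each library in turn. A scaling changes all genes of a library by 1 factor, so it cannot change their order within that library. The number of the 6 genes with a library standing apart was 1 as deposited. It was 0 after rescaling to a sum of 1000000, 0 after upper-quartile scaling and 0 without mitochondrially encoded genes. With the gap on a log2 scale, or at a minimum of 5 FPKM, it stayed at 1. At a minimum of 0.1 FPKM it was 1 of the 9 genes kept. It was 0 without replicate 5, a setting chosen after seeing the data. That setting removes the library at issue and so cannot say whether it stands apart. The median SD of the 6 genes was 0.134 as deposited, 0.163 after rescaling to a common sum, and 0.109 to 0.144 when each library was left out. The pairs with an unadjusted p below 0.05 numbered 2, against 3 under each of the 3 other scalings, where Hapln4 with Tnr joined. They numbered 1 by Spearman's rho and 1 to 2 when each library was left out, with 1 without replicate 2 or without replicate 7. At the minimum of 0.1 FPKM they numbered 3, but there 9 genes were kept and so more than 15 pairs were tested. The pairs changed with the library left out: without replicate 2 neither Ncan with Ptprz1 nor Hapln1 with Bcan stayed below 0.05, and without replicate 5 the pairs were Ncan with Ptprz1 and Hapln1 with Hapln4. The sign of r between Hapln1 and Hapln4 turned, at -0.0274 after upper-quartile scaling and -0.607 by rho, and it ran from -0.908 without replicate 5 to 0.205 without replicate 4. The cause was not tested. No scaling moved the median of all genes by more than 0.0673 on the log2 scale.

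Injury and control could not be compared, since the labels do not tell the libraries apart. With 7 libraries and 12051 genes, correlations near 1 were needed to approach the adjusted threshold. Acan, Has3, Tnc and above all Has2 were limited by depth, at 0 to 378 reads per library. No paired analysis was possible because the labels place all samples in 1 group.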
